A study of Mus musculus with 10 samples.

Results

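The enzymes that write and remove methyl groups on cytosine were followed through mouse spermatogenesis with 9 genes, which were taken by name: Dnmt1 and Uhrf1 for maintenance of methylation, Dnmt3a, Dnmt3b and Dnmt3l for its de novo deposition, Tet1, Tet2 and Tet3 for oxidation of 5-methylcytosine, and Tdg for excision of the oxidised base. All 9 were among the 28125 genes of the RNA matrix and the 30657 nuclear genes of the scATAC matrix, and all 9 passed the minimum mean of 0.05 UMIs per 10000 that was used for comparisons. RNA and open chromatin had been read together in nuclei of whole testis by scRNA-seq and scATAC-seq. The wild-type mice were C57BL/6J at 11, 17 and 25 dpp (days postpartum), and the 8-week-old mice were Cre/+ or Nfya-CKO. Cre/+ mice carried the Stra8-Cre driver, a Cre cassette placed before the stop codon of Stra8 that is active in spermatogonia and pL, with no floxed allele named, and Nfya-CKO mice (Nfya fl/fl; Stra8-Cre) lose exons 5 and 6 of Nfya through the same driver, both on a C57BL/6J background. Each condition was 1 library per assay, so no difference between populations or genotypes below has a replicate check and no p-value was computed.

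Values were available for 13 populations pooled over libraries: undifferentiated and differentiating spermatogonia (undiff. SpG, diff. SpG), preleptotene cells (pL), early leptotene to zygotene (eL/L/Z), leptotene to early pachytene (L/Z/eP), mid to late pachytene (mP/lP), diplotene (D), round spermatids (RS), elongating spermatids (ES), spermatogonia of the library labelled Nfya-CKO (SpG Nfya-CKO), Sertoli cells, other somatic cells (a column that the matrix names for the somatic cells of Nfya-CKO, although not all of its cells are of that library) and unknown cells. An RNA value is the mean over cells of a gene's UMIs per 10000 UMIs of the cell, and intervals given with it are 95% intervals that cover counting error only. An scATAC value is the signal of a gene per 1000000 of its population.

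DNA methyltransferase 1 copies methylation onto the new strand after replication, and Uhrf1 recognises the hemimethylated site and recruits it. Dnmt3a and Dnmt3b methylate new sites, Dnmt3l is a cofactor without catalytic activity of its own, and in the male germ line de novo methylation is known to take place in fetal prospermatogonia, before the stages measured here. Tet enzymes oxidise 5-methylcytosine, and the glycosylase Tdg removes the oxidised products so that base excision repair can restore cytosine. NFYA is the subunit of NF-Y that reads the CCAAT box.

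Library totals ran from 30227701 to 64967271 UMIs and from 177596122 to 872964488 fragments, and 5030 of 39674 cell barcodes occurred in more than 1 scRNA-seq library (982 of 342825 in scATAC-seq). The populations do not share an age: 84.5% of diff. SpG and 99.6% of ES came from the Cre/+ library, against 7.89% of undiff. SpG and 0.341% of pL, and 87.8% of Sertoli cells came from the 11 dpp library. Several populations held markers of other cells beside their own. Prm1, a protamine of elongating spermatids, was at 3.94 UMIs per 10000 in diff. SpG against 0.155 in undiff. SpG, the Leydig hormone Insl3 was at 39.8 in SpG Nfya-CKO against 0.064 in undiff. SpG, and the Sertoli factor Wt1 was at 2.45 in ES and 1.39 in eL/L/Z against 0.424 in RS. Amh, another Sertoli marker, was at 0.00436 in ES and 0.071 in eL/L/Z against 0.00641 in RS. Other somatic cells had Prm1 at 1.54, and unknown cells had Insl3 at 20.5. Of 5 undifferentiated markers 2 were higher in SpG Nfya-CKO than in undiff. SpG, namely Uchl1 (11 against 5.88, with 4.87 in other somatic cells) and Gfra1 (1.2 against 1.08), and 3 were lower, namely Zbtb16 (4.15 against 8.74), Lin28a (1.72 against 2.59) and Id4 (0.29 against 0.682). Nfya itself was at 1.11 in SpG Nfya-CKO and 0.456 in undiff. SpG. A value per gene cannot show the loss of 2 exons, so in these data the genotype rests on the label. For Nfya-CKO testes the study reports, from western blotting and immunohistochemistry, that NFYA protein was depleted in germ cells.

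Of the 9 genes, 4 carry a CCAAT box (CCAAT or its complement ATTGG, both strands searched) within 250 bases before at least 1 of their RefSeq starts, and 37.5% of all 27025 genes with a listed start do. By window, 6 of 16 windows of the 9 genes held it, against 33.8% of 32851. The windows of Uhrf1, Tdg and Tet3 are shown together with the outer start of Dnmt1, because the scATAC comparison below turns on Uhrf1, Tdg and Dnmt1, and Tet3 is the remaining gene with a box. Sequences are from RefSeq on GRCm38.p6, the build of mm10, read 5′ to 3′ on the gene's strand up to the base before the start, with the boxes in capitals. Positions count the first base of a box back from the start. Uhrf1 has a box 30 bases before its outer start, and boxes 150 and 107 bases before its inner start, which lies in the CpG-richer window (30 CpG against 10). Tdg has 1 box 45 bases before its start, Tet3 has 1 at 31 bases, and the outer start of Dnmt1 has boxes at 137, 80, 69 and 28 bases.
Uhrf1 outer start, chr17:56303087-56303336, plus strand: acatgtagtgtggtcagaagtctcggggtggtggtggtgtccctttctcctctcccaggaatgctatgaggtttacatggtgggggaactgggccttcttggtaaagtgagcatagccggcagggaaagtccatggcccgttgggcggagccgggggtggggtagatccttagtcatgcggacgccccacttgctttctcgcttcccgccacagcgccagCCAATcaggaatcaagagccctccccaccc
Uhrf1 inner start, chr17:56304063-56304312, plus strand: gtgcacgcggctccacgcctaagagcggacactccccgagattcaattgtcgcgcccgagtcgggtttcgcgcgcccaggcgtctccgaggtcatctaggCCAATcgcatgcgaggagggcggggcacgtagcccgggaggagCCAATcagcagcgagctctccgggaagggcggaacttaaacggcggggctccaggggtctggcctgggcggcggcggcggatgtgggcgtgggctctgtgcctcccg
Tdg, chr10:82629588-82629837, plus strand: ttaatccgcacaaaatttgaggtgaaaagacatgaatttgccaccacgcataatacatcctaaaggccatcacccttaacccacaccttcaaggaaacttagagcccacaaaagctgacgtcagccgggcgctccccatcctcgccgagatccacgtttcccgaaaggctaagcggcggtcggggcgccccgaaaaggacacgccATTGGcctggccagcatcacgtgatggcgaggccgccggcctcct
Tet3, chr6:83441679-83441928, minus strand: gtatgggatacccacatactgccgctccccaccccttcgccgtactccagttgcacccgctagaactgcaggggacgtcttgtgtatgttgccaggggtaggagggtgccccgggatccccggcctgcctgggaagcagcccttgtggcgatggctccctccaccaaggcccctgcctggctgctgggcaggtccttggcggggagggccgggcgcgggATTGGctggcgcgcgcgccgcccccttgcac
Dnmt1 outer start, chr9:20959889-20960138, minus strand: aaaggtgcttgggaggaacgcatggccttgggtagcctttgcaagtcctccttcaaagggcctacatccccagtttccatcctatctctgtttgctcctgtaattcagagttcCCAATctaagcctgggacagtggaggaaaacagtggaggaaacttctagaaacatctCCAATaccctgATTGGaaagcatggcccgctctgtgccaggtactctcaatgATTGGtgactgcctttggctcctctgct

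The windows of Dnmt3a, Dnmt3b, Dnmt3l, Tet1 and Tet2 held neither spelling, and a match or its absence was not tested for binding. In GENCODE vM21 on the same build the genes lie as Dnmt1 at chr9:20907209-20959888 on the minus strand, Uhrf1 at chr17:56303321-56323486 on the plus strand, Dnmt3a at chr12:3806007-3914443 on the plus strand, Dnmt3b at chr2:153649450-153687730 on the plus strand, Dnmt3l at chr10:78041947-78063622 on the plus strand, Tet1 at chr10:62804570-62908996 on the minus strand, Tet2 at chr3:133463679-133545139 on the minus strand, Tet3 at chr6:83362373-83459084 on the minus strand and Tdg at chr10:82629828-82650799 on the plus strand. Dnmt1 has 3 RefSeq starts: the outer one, with 2 CpG in its window, lies at the 5′ end of the gene, and a start with 26 CpG and 3 boxes, whose window is not printed, lies 7265 bases inside. RefSeq starts of Tet1 and Tet3 lie 21672 and 17406 bases inside the 5′ ends that GENCODE gives. Dnmt3l has 3 starts, 340, 7895 and 13388 bases from its 5′ end, and a value per gene does not say which one was used.

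RNA of 6 of the 9 genes (Dnmt1, Uhrf1, Dnmt3a, Dnmt3b, Tet3 and Tdg) was highest in pL among the 9 control germ cell populations, whereas 17.8% of all 15250 genes tested were. The pL intervals of Dnmt1, Uhrf1 and Dnmt3b lay above those of all 8 other populations, whereas that of Dnmt3a overlapped undiff. SpG, that of Tet3 diff. SpG, and that of Tdg both and eL/L/Z. Dnmt3l was highest in RS, Tet2 in ES and Tet1 in eL/L/Z, which were the highest populations of 18.2%, 15% and 4.73% of genes. Under median-ratio scaling the highest population was the same for 8 of the 9, and that of Tet1 moved to RS. All 6 genes of the first group were lower in RS and in ES than in undiff. SpG. These genes were grouped by their maximum in pL, and the share of all genes that did so is not given.

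**Figure D1:**
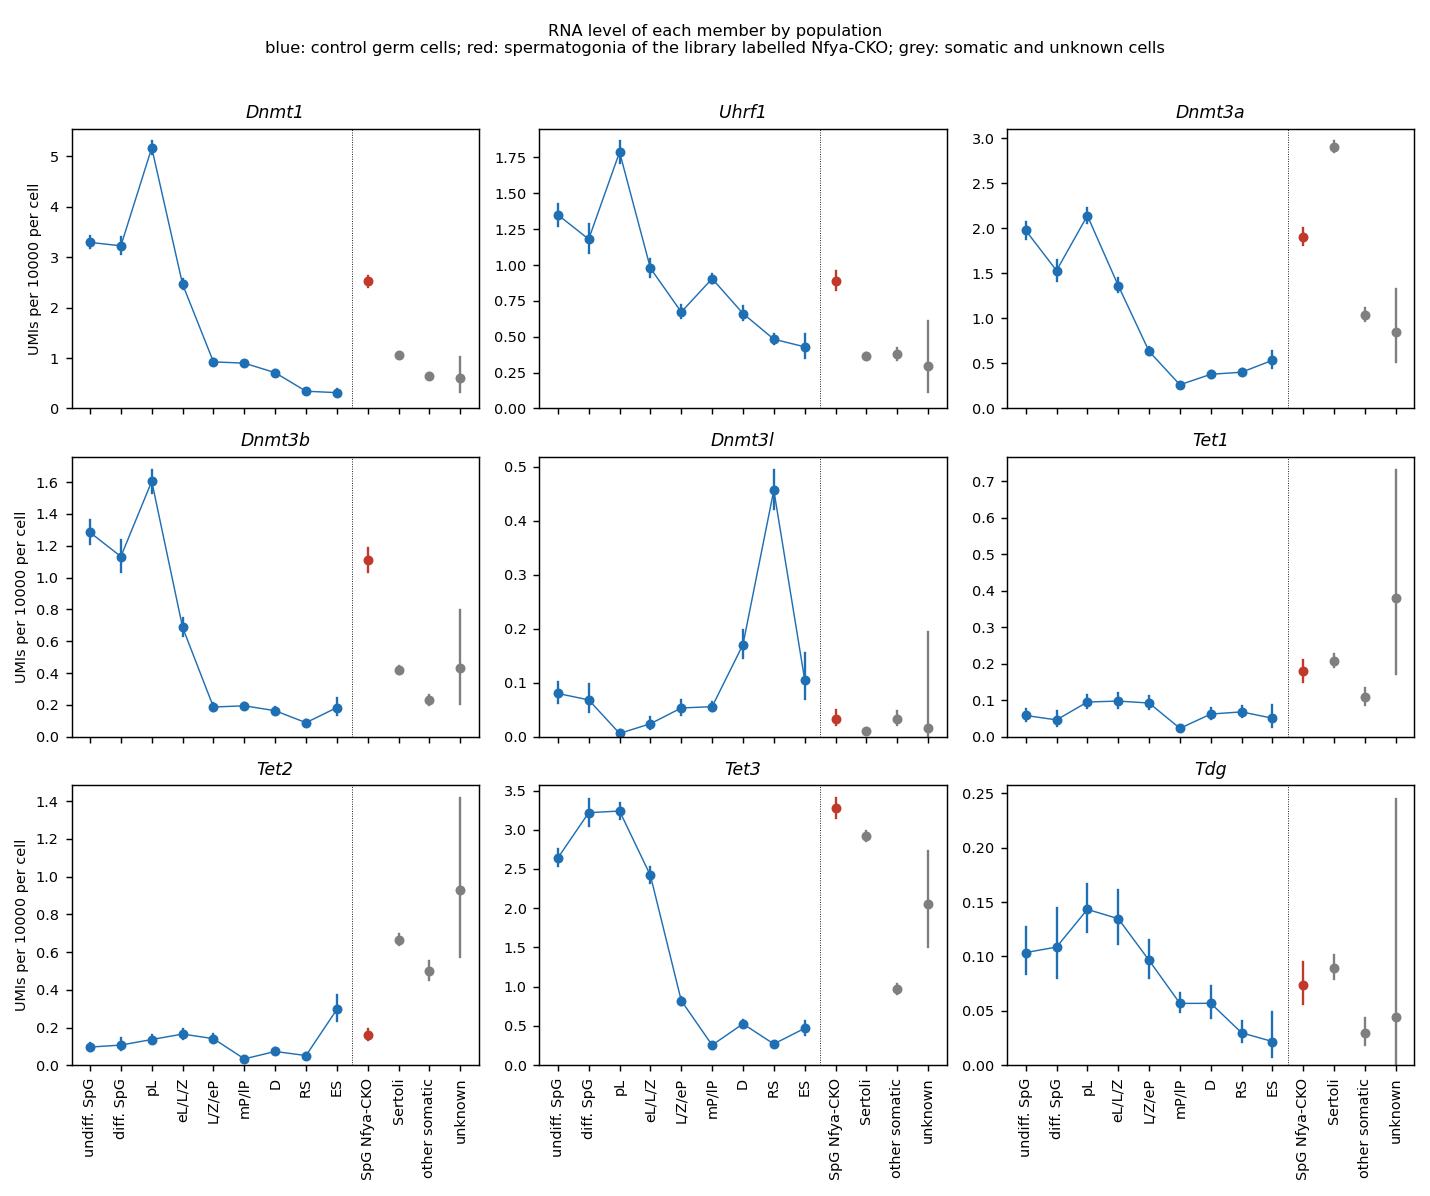
RNA level (UMIs per 10000 per cell, linear axis from 0) of each gene in the 13 populations; points are the pooled values and bars are 95% intervals for counting error only. Dnmt1, Uhrf1, Dnmt3a, Dnmt3b, Tet3 and Tdg peak in pL among the blue germ cell points, and Dnmt3l stands at 0.456 in RS against 0.00633 in pL.

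The maintenance enzyme Dnmt1 measured 3.29 in undiff. SpG, 3.22 in diff. SpG, 5.17 in pL, 2.46 in eL/L/Z, 0.923 in L/Z/eP, 0.899 in mP/lP, 0.709 in D, 0.342 in RS and 0.314 in ES. Its level in pL (interval 5.04 to 5.29, from about 6297 effective UMIs) lay above every other population, and the 16.5-fold range from pL to ES was covered mostly between pL and L/Z/eP. Intervals of undiff. and diff. SpG overlapped, as did those of L/Z/eP and mP/lP and those of RS and ES. Uhrf1, the partner that brings Dnmt1 to replicated DNA, measured 1.35 in undiff. SpG, 1.18 in diff. SpG, 1.79 in pL, 0.978 in eL/L/Z, 0.672 in L/Z/eP, 0.905 in mP/lP, 0.662 in D, 0.483 in RS and 0.43 in ES. Uhrf1 had its highest value in pL too, but its range was 4.16-fold, and it was higher in mP/lP than in L/Z/eP by intervals that did not overlap. Over the 9 germ cell populations the log2 levels of the 2 genes had a Pearson r of 0.969, given without a test because the populations share libraries and depth. In Sertoli cells Dnmt1 was at 1.06 and Uhrf1 at 0.365, and in other somatic cells they were at 0.645 and 0.38.

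Dnmt3a, one of the catalytic de novo enzymes, measured 1.98 in undiff. SpG, 1.53 in diff. SpG, 2.14 in pL, 1.36 in eL/L/Z, 0.634 in L/Z/eP, 0.263 in mP/lP, 0.379 in D, 0.402 in RS and 0.535 in ES. Its germ cell low was in mP/lP, and ES lay above D and RS, but not above RS under median-ratio scaling (log2 ratio -0.03). In ES it stood at 18.4% of its Sertoli level, with Wt1 at 24.3% and Sox9 at 17.8% of theirs. The Sertoli marker Amh was at 0.00436 in ES against 0.927 in Sertoli cells. These 2 populations differ in age as well, and the part of Sertoli transcripts in the ES value was not tested. For Dnmt3a, Sertoli cells exceeded all germ cells with 2.91 (2.85 to 2.97), and other somatic cells had 1.04. Dnmt3b, the other catalytic enzyme, measured 1.28 in undiff. SpG, 1.13 in diff. SpG, 1.6 in pL, 0.687 in eL/L/Z, 0.187 in L/Z/eP, 0.195 in mP/lP, 0.164 in D, 0.0888 in RS and 0.184 in ES. It was lowest in RS, its intervals in L/Z/eP, mP/lP, D and ES overlapped, and it was at 0.42 in Sertoli cells. The RNA row of Dnmt3a cannot be separated from that of pi-Dnmt3a.1, a prepachytene piRNA precursor annotated at the same locus, since both rows held the same value in 13 of 13 populations (tolerance 1e-09).

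Dnmt3l had its highest and lowest values elsewhere. It measured 0.0802 in undiff. SpG, 0.0684 in diff. SpG, 0.00633 in pL, 0.0242 in eL/L/Z, 0.0534 in L/Z/eP, 0.0558 in mP/lP, 0.171 in D, 0.456 in RS and 0.106 in ES. The RS value (0.422 to 0.493, about 645 effective UMIs) was above all other populations, and the pL value (0.00268 to 0.0126) rested on about 8 effective UMIs. In diff. SpG, where spermatid markers were present, Dnmt3l stood at 15% of its RS level and the summed markers of round spermatids (Acrv1, Tssk1 and Tssk2) at 18.7% of theirs. In undiff. SpG the same shares were 17.6% and 2.33%. Dnmt3l was at 0.0109 in Sertoli cells. Aire, which overlaps the first bases of Dnmt3l on the other strand, did not exceed 0.0232 in any population. The rodent de novo enzyme Dnmt3c was at or below 0.0448 in all 13 populations.

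Among the Tet dioxygenases, Tet3 measured 2.64 in undiff. SpG, 3.22 in diff. SpG, 3.24 in pL, 2.42 in eL/L/Z, 0.822 in L/Z/eP, 0.256 in mP/lP, 0.527 in D, 0.271 in RS and 0.47 in ES. Intervals of diff. SpG and pL overlapped, and D was above both mP/lP and RS. The RNA rows of Tet3 and pi-Tet3.1, a prepachytene piRNA precursor at this locus, were equal in 9 of 13 populations and differed by at most 0.00698 in the rest, so these levels cannot be separated either. Tet2 measured 0.0961 in undiff. SpG, 0.107 in diff. SpG, 0.136 in pL, 0.165 in eL/L/Z, 0.141 in L/Z/eP, 0.0336 in mP/lP, 0.0729 in D, 0.0513 in RS and 0.296 in ES. Its highest germ cell value, in ES, was below Sertoli cells (0.666) and other somatic cells (0.501). In ES, Tet2 stood at 44.4% of its Sertoli level, with Wt1 at 24.3%, Sox9 at 17.8% and the 5 Sertoli markers summed, most of it Clu, at 64.1% of theirs, and their part in the ES value was not tested. Tet1 stayed at or below 0.0978 in all 9 control germ cell populations, where it measured 0.0584 in undiff. SpG, 0.0464 in diff. SpG, 0.0954 in pL, 0.0978 in eL/L/Z, 0.0926 in L/Z/eP, 0.0233 in mP/lP, 0.0623 in D, 0.0683 in RS and 0.0509 in ES. Sertoli cells had 0.208, and the 5 Sertoli markers summed to 11.4 in eL/L/Z and 5.27 in pL, whose part in the eL/L/Z value was not tested. Intervals of Tet1 in pL, eL/L/Z and L/Z/eP overlapped, and the mP/lP interval (0.0181 to 0.0294) lay below theirs.

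Tdg, the glycosylase, measured 0.104 in undiff. SpG, 0.109 in diff. SpG, 0.143 in pL, 0.135 in eL/L/Z, 0.0964 in L/Z/eP, 0.0568 in mP/lP, 0.0569 in D, 0.0298 in RS and 0.0218 in ES. The spermatogonial, pL and eL/L/Z intervals overlapped, and RS and ES rested on about 42 and 5 effective UMIs. The reads kept were those with a single place in the genome, and 71% of the 71-base stretches of its longest coding transcript occur more than once in the reference, against 11.8% for Uhrf1, 3.81% for Dnmt3b, 0.406% for Tet2 and 0% for Dnmt1, Dnmt3a, Dnmt3l, Tet1 and Tet3. The level of Tdg therefore rests on the remaining stretches, and how much was lost was not tested. Glt8d2, which overlaps the 3′ end of Tdg on the other strand, ran from 0.0184 in pL to 0.461 in RS, and use of strand in counting is not given in the sources used here.

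Between neighbouring stages, a gene was counted when value + 0.1 differed at least 2-fold, a scale that understates changes of low genes. Of 72 pairs of a gene and a step, 8 were lower and 2 higher. No member passed from undiff. to diff. SpG (all genes 9.57% higher, 6.28% lower) or from diff. SpG to pL (1.27% higher, 10.9% lower). From pL to eL/L/Z, where 0.59% of all genes were lower and 4.41% higher, Dnmt1 (-1.04 log2) and Dnmt3b (-1.11) were lower. Between eL/L/Z and L/Z/eP Dnmt1 (-1.32), Dnmt3b (-1.45) and Tet3 (-1.45) were lower, beside 3.97% of all genes lower and 5.45% higher, and Dnmt3a was just short of the threshold at a log2 ratio of -0.997. From L/Z/eP to mP/lP Dnmt3a (-1.02) and Tet3 (-1.37) were lower (all genes 3.54% lower, 1.38% higher). Under median-ratio scaling the call of Dnmt3a was lost (-0.87). No member passed from mP/lP to D (4.92% higher, 0.184% lower). From D to RS Dnmt3l was higher (1.04; 10.6% of genes higher, 3.34% lower), and from RS to ES Tet2 was higher (1.39) and Dnmt3l lower (-1.44), where 10.1% and 10% of genes were higher and lower. Uhrf1, Tet1 and Tdg passed in no step, and L/Z/eP (93.5% of it from 25 dpp) and eL/L/Z (42.6%) differ in age as well as stage.

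**Figure D2:**
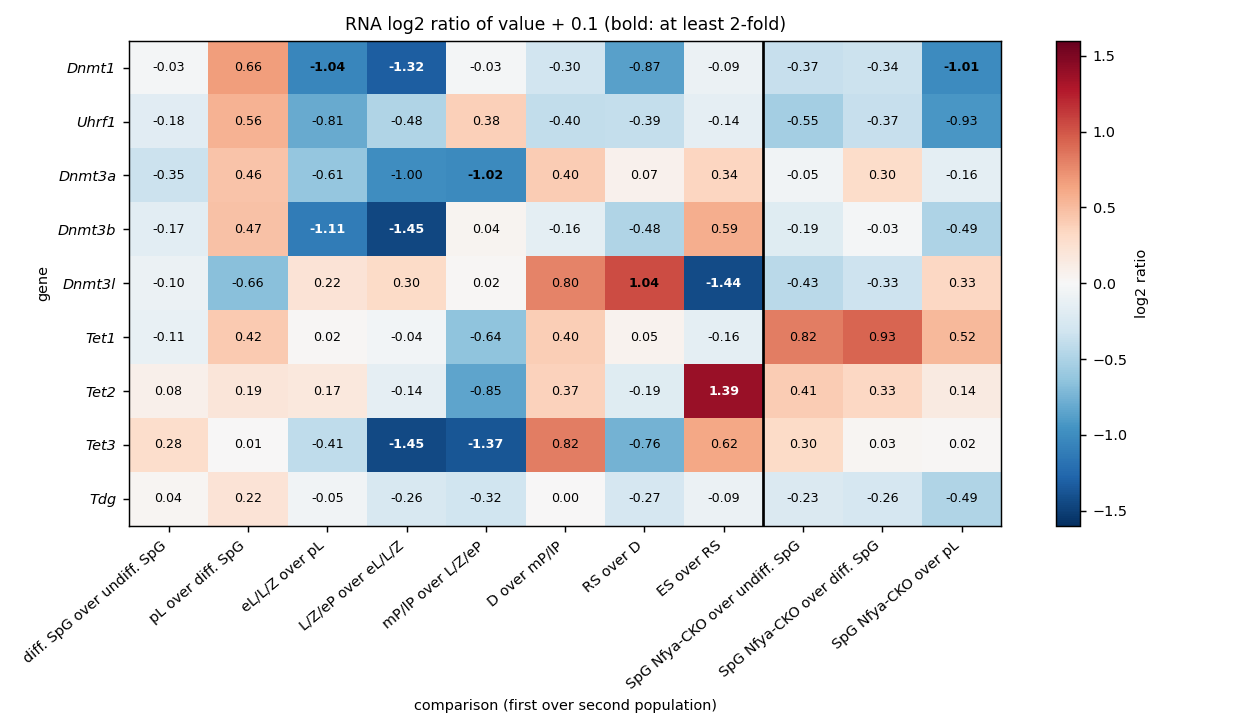
Log2 ratio of RNA value + 0.1 for each gene (rows) in 8 steps between neighbouring germ cell populations and in 3 comparisons of SpG Nfya-CKO (columns, right of the line); colour and number give the ratio, and bold marks at least 2-fold. Dnmt1, Dnmt3a, Dnmt3b and Tet3 hold the bold negative values between pL and mP/lP, and Dnmt1 over pL (-1.01) is the bold value right of the line.

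In SpG Nfya-CKO (491 cells) no member differed 2-fold from control undiff. SpG (1292 cells), where 4.09% of all genes were higher and 3.08% lower. Dnmt1 was at 2.52 (2.41 to 2.63) against 3.29 (3.17 to 3.41), a log2 ratio of -0.37. Uhrf1 was at 0.891 (0.826 to 0.959) against 1.35 (1.28 to 1.43), a log2 ratio of -0.55, the lowest of the 9 with 0.1 added. By the values themselves Dnmt3l had the lowest ratio (0.422, against 0.66 for Uhrf1). Among de novo genes, Dnmt3a (-0.05) had overlapping intervals and Dnmt3b (-0.19) had not. Tet3 was at 3.28 against 2.64 (0.30), Tet2 at 0.16 against 0.0961 (0.41), and Tdg at 0.0737 against 0.104 (-0.23) with overlapping intervals. For 2 low genes the added 0.1 decides the call: Tet1 was at 0.179 (0.151 to 0.212) against 0.0584 (0.0436 to 0.0767), a 3.07-fold ratio of the values themselves and 0.82 on the log2 scale used, and Dnmt3l was at 0.0339 against 0.0802, a ratio of 0.422 and -0.43. The 3 Tet genes had positive log2 ratios and the other 6 genes negative ones, where the median of all genes was 0.01. The signs of Dnmt3a and Tdg rest on overlapping intervals, and the share of all genes with each sign is not given. Over diff. SpG and over pL the log2 ratio of Tet3 was 0.03 and 0.02, with overlapping intervals.

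Against control diff. SpG, again no member passed (6.86% of all genes higher, 10.5% lower), and Dnmt3a had the opposite sign (0.30). Against pL, Dnmt1 passed as lower (-1.01), with Uhrf1 just short of it (-0.93), where 4.73% of all genes were lower and 9.05% higher. The 3 comparisons share the SpG Nfya-CKO value. Leydig markers summed to 41.9 in SpG Nfya-CKO, 0.188 in undiff. SpG and 187 in other somatic cells, with 4 of 4 higher in SpG Nfya-CKO than in undiff. SpG and none at 0; the 5 Sertoli markers summed to 24.4 and 3.7, nearly all of the first being Clu (22.8), and 4 of 5 were higher. For 7 of the 9 genes the SpG Nfya-CKO value lay between that of undiff. SpG and that of other somatic cells, 78.8% of which came from the same library, and 44.2% of 15250 tested genes lay between them as well; the part of somatic transcripts in these values was not tested. Tet1 and Tet3 were above both, as were 29.1% of the tested genes: other somatic cells had 0.108 for Tet1 and 0.97 for Tet3. Median depth was 18361 UMIs per cell in SpG Nfya-CKO and 9290 in undiff. SpG, and genotype, age and library cannot be told apart, because 491 of 491 cells of the first are of the 8-week-old Nfya-CKO library and 102 of 1292 of the second are of the 8-week-old Cre/+ library.

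In scATAC-seq the same comparison put Uhrf1 and Tdg at least 20% lower and Dnmt1 at least 25% higher (the same factor in either direction, used for all scATAC counts), that is 2 and 1 of 9 genes, where 25.4% of 29939 nuclear genes were lower and 27.3% higher. Uhrf1 had 28.8 per 1000000 in SpG Nfya-CKO, against 49.3 in undiff. SpG, 62 in diff. SpG and 70.7 in pL, a ratio of 0.584 to undiff. SpG. This was below all 9 control germ cell populations, and other somatic cells had 28.5 on this scale, which includes mitochondrial signal. Scaled on nuclear genes alone, Uhrf1 had 53.3 in SpG Nfya-CKO, against 83.1 in undiff. SpG, 80.2 in other somatic cells and 68 in Sertoli cells. Tdg had 29.2 against 39.8 (ratio 0.734), and this call is lost when values are scaled on nuclear genes alone (ratio 0.807), while Uhrf1 keeps it (0.642). Dnmt1 had 7.01 against 5.6 and was just past the threshold, a small signal that 1 added to both values brings under it. The other ratios were 0.891 for Dnmt3a, 0.93 for Dnmt3b, 0.843 for Dnmt3l, 0.974 for Tet1, 1.03 for Tet2 and 1.02 for Tet3, beside a median of 0.978 over nuclear genes. Of 7868 genes with a mean of 25 per 1000000 or more over the 13 populations, 46% were lower and 0.381% higher, with a median ratio of 0.813, and 2 of the 3 members in that range (Uhrf1, Tdg and Dnmt3a) were lower. Within that range 2.61% of genes had a lower ratio than Uhrf1 and 25.9% a lower ratio than Tdg. Choosing genes at this level in undiff. SpG alone, which by itself favours lower ratios because that value is the divisor, gave 38.9% lower and 1.32% higher of 10268 genes. Mean TSS enrichment, the signal at transcription starts over flanking sequence, was 7.99 in SpG Nfya-CKO and 12.7 in undiff. SpG, and its part in these ratios was not tested.

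Against diff. SpG, Uhrf1 (0.464), Dnmt3a (0.534), Tet1 (0.491) and Tdg (0.647) were lower and Tet2 (1.52) higher, where 42.5% of nuclear genes were lower and 34.2% higher. Against pL, Uhrf1 (0.407), Dnmt3a (0.458), Tet1 (0.528), Tet3 (0.709) and Tdg (0.693) were lower and Dnmt1 (1.32) higher, where 39.3% were lower and 35.7% higher. Uhrf1 and Tdg were lower against all 3 controls, but the 3 ratios share the SpG Nfya-CKO value. The share of all nuclear genes lower against all 3 is not given, so this agreement is a description only. Scaled on nuclear genes alone, Uhrf1 was lower against all 3 and Tdg against diff. SpG (0.78) but not against pL (0.883). The call of Tet3 against pL was lost as well (0.903). On that scale 5 members were higher against diff. SpG (Dnmt1, Dnmt3b, Dnmt3l, Tet2 and Tet3) and 2 against pL (Dnmt1 and Tet2). The shares of all nuclear genes on that scale are not given, so these counts have no background beside them. Divided by the median ratio of nuclear genes, 3 were higher against diff. SpG and 1 against pL. Of the 4 genes with a CCAAT box in the windows printed above, Uhrf1 and Tdg were lower, Dnmt1 higher and Tet3 within the threshold against undiff. SpG. Dnmt3a, Dnmt3b, Dnmt3l, Tet1 and Tet2, without a box, were within the threshold as well. The shares of all genes with a box that were lower or higher are not given, and a link between box and signal was not tested. Unlike their RNA, the piRNA precursor rows had scATAC values of their own: pi-Dnmt3a.1 had 40.3 against 47.9 (ratio 0.84) and pi-Tet3.1 30.2 against 33.6 (0.9).

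**Figure D3:**
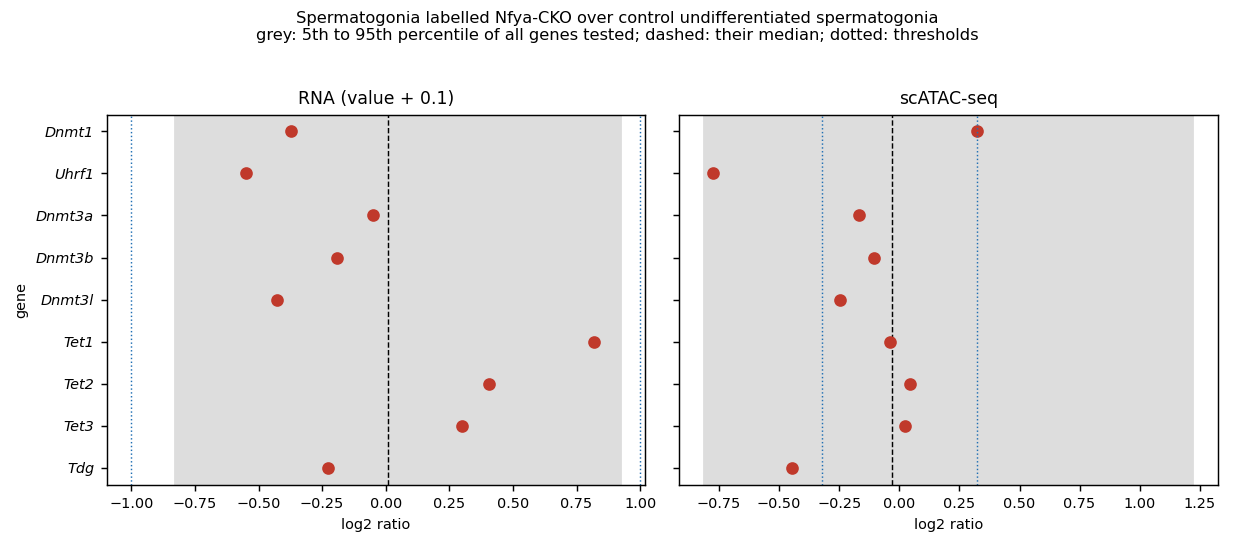
Log2 ratio of SpG Nfya-CKO over control undiff. SpG for RNA (left, value + 0.1) and scATAC-seq (right) of each gene; red points are pooled values of 1 library per assay in the numerator, the grey band runs from the 5th to the 95th percentile of all genes tested, the dashed line is their median and dotted lines mark 2-fold (RNA) and the factor of 25% higher or 20% lower (scATAC-seq). All 9 RNA points lie inside the dotted lines, and on the right Uhrf1 and Tdg lie left of them and Dnmt1 on the right one.

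Through control spermatogenesis, scATAC signal of Dnmt3a measured 30.7 in undiff. SpG, 51.2 in diff. SpG, 59.7 in pL, 38.6 in eL/L/Z, 20.3 in L/Z/eP, 14.3 in mP/lP, 22.5 in D, 22.8 in RS and 42.1 in ES. Like its RNA, it was highest in pL and lowest in mP/lP. Uhrf1 measured 49.3 in undiff. SpG, 62 in diff. SpG, 70.7 in pL, 55.9 in eL/L/Z, 39.4 in L/Z/eP, 40.8 in mP/lP, 48.1 in D, 63.8 in RS and 70.0 in ES, with values in RS and ES near that of pL while its RNA was at its lowest there. Dnmt3l measured 15.2 in undiff. SpG, 12.1 in diff. SpG, 14.1 in pL, 10.4 in eL/L/Z, 5.68 in L/Z/eP, 6.7 in mP/lP, 9.59 in D, 12.1 in RS and 5.7 in ES, and its RS value was below that of undiff. SpG although its RNA was highest in RS. Tet2 signal was highest in undiff. SpG (39.8) and lowest in mP/lP (6.66), and in Sertoli cells it was 41.2. The order of stages depends on mitochondrial signal, which is part of these values and took 31.2% in pL and 60.3% in mP/lP: scaled on nuclear genes alone, Dnmt3b was highest in undiff. SpG (55.4) and lowest in RS (33.2), Tdg was lowest in RS (58), Uhrf1 was highest in ES (124) and lowest in undiff. SpG (83.1), and Uhrf1, Tet1 and Tdg were not lower in mP/lP than in pL. On the scale with mitochondrial signal, Dnmt3b ran from 15.7 in L/Z/eP to 33.3 in pL, Tet3 from 4.41 in ES to 17.1 in pL, and Tdg from 25.7 in L/Z/eP to 49.2 in ES. Tet1 did not exceed 4.07 and Dnmt1 did not exceed 5.81 in control germ cells, where Dnmt1 is listed at 0 in ES (about 53 cells recovered from the matrix, 124 in the cell table). For coverage of merged populations the study averages a short window on both sides of the start, but whether this matrix of values per gene used it is not given in the sources used here, and which start of these genes it covers was not tested.

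Over the 8 steps, 18 pairs of a gene and a step were higher and 22 lower of 71 with signal in both populations. From pL to eL/L/Z, 7 of 9 genes were at least 20% lower and 0 higher (all nuclear genes 51.9% lower, 7.31% higher). Between eL/L/Z and L/Z/eP, 8 of 9 were lower and 0 higher (66.4% and 12.4%). From undiff. to diff. SpG 3 were higher and 2 lower (38.9% and 27.7%), and from diff. SpG to pL 2 and 0 (22.9% and 25.1%). From L/Z/eP to mP/lP 1 was higher and 2 lower (37.9% and 7.9%), from mP/lP to D 5 and 1 (66.7% and 2.42%), and from D to RS 4 and 0 (44.2% and 4.94%). From RS to ES 3 of 8 were higher and 2 lower (23.7% and 45.2%). The share of signal on mitochondrial genes went from 31.2% in pL to 45.4% and 63.8% in eL/L/Z and L/Z/eP, and over these 2 steps the median nuclear gene had a ratio of 0.792 and 0.698. Relative to that median over the first and the second of these steps, Dnmt1 was at 1.19 and 0.603, Uhrf1 at 1 and 1.01, Dnmt3a at 0.816 and 0.755, Dnmt3b at 0.849 and 1, Dnmt3l at 0.933 and 0.783, Tet1 at 0.723 and 1.58, Tet2 at 0.75 and 0.619, Tet3 at 0.827 and 0.708, and Tdg at 1.11 and 0.997. Scaled on nuclear genes alone, Uhrf1 (1.06), Dnmt3b (1.06) and Tdg (1.05) were not lower at the second step. Across the 9 control germ cell populations, Pearson r between log2(RNA value + 0.1) and log2(scATAC value + 1) was 0.851 for Dnmt3b, 0.827 for Tet3, 0.784 for Dnmt3a and 0.699 for Dnmt1, beside a median of 0.299 and an upper quartile of 0.639 over 15238 genes. It was 0.219 for Tet2, 0.0507 for Dnmt3l, 0.0442 for Uhrf1, 0.01 for Tdg and -0.166 for Tet1. Over 12 populations, all but the unknown cells, r was 0.371 for Uhrf1, 0.272 for Tdg, 0.422 for Tet2 and -0.502 for Tet1, and Spearman's rho over the 9 was 0.617 for Dnmt3b. These are descriptions over populations that share libraries and depth.

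**Figure D4:**
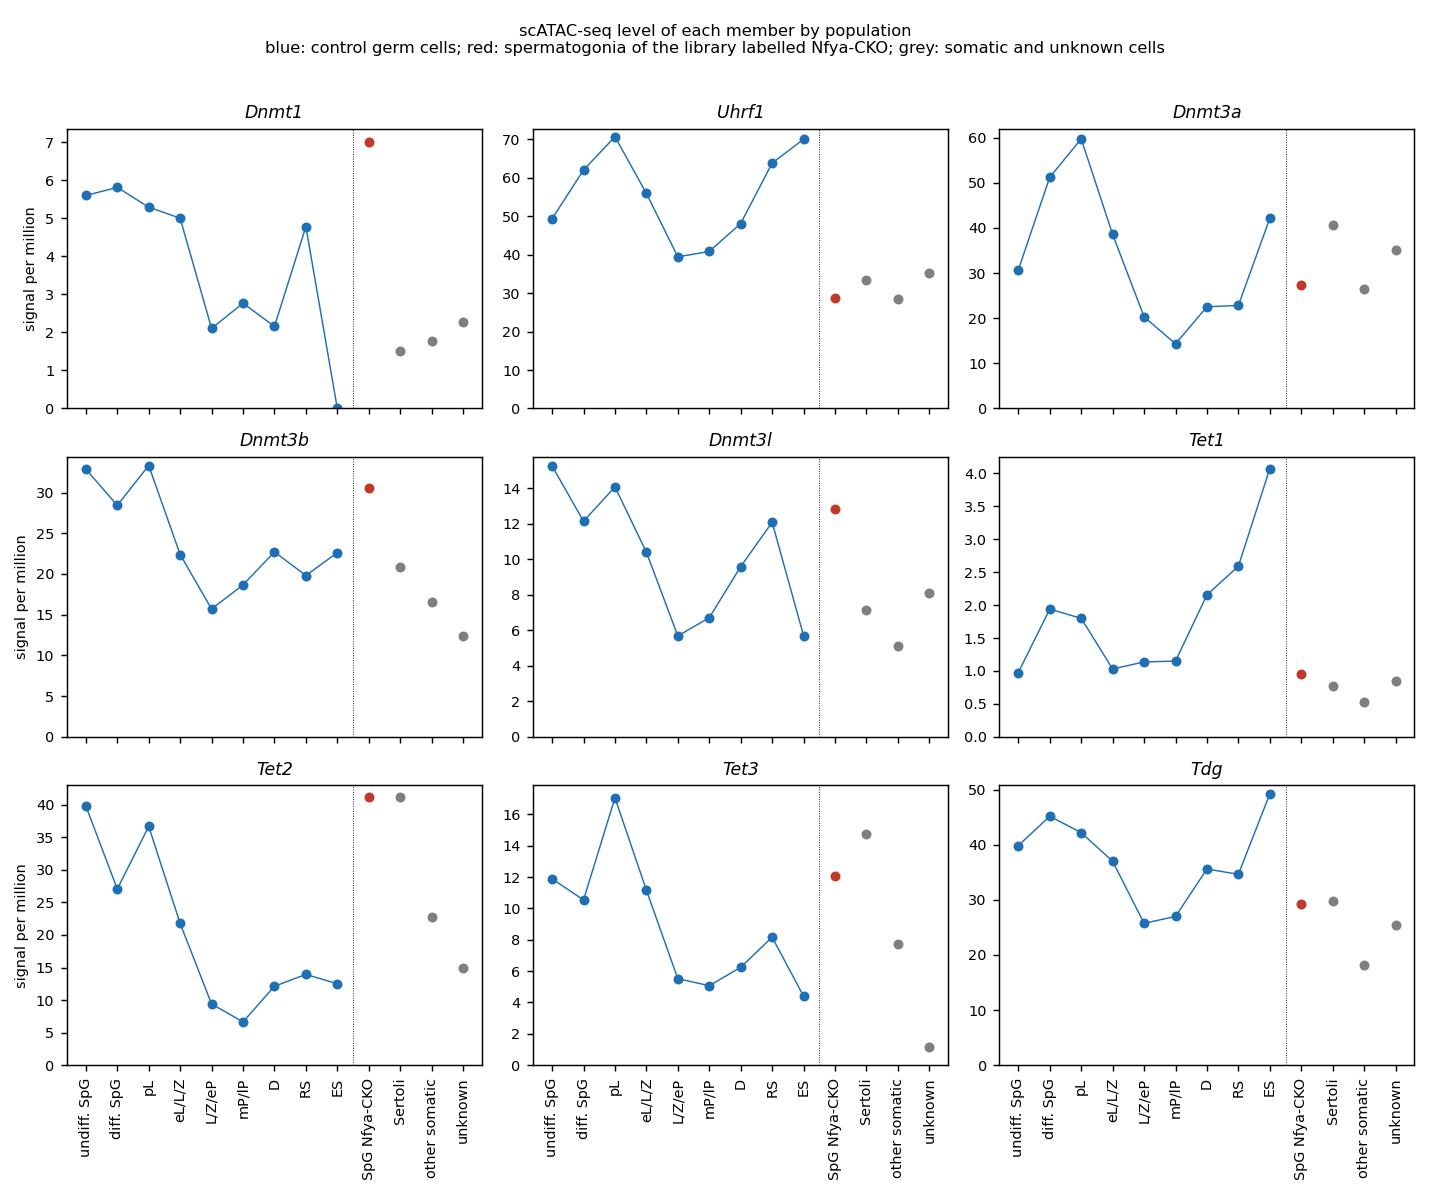
scATAC-seq signal per 1000000 (linear axis from 0) of each gene in the 13 populations, without an error because each is 1 pooled value. Uhrf1 in SpG Nfya-CKO (red) stands at 28.8, below its 9 control germ cell points, and all 9 genes are lower in mP/lP than in pL on this scale, which includes mitochondrial signal. The share of all nuclear genes lower in mP/lP than in pL is not given, so this count is a description only.

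Genes that work with these enzymes were read from lists chosen with earlier results of these data known, so their counts are descriptions beside the shares of all genes given above. Of 7 maintenance partners, 4 were highest in pL. Hells, a chromatin remodeller needed for methylation of repeats, ran from 3.86 in undiff. SpG to 7.06 in pL and 0.686 in ES, and Cdca7, its targeting partner, from 1.26 in undiff. SpG to 0.064 in RS. No partner passed 2-fold in SpG Nfya-CKO over undiff. SpG (median log2 ratio -0.16, against 0.01 for all genes). Pcna, the sliding clamp of replication, was nearest at 0.239 against 0.569 (-0.98), followed by the Uhrf1 paralogue Uhrf2 (-0.55), the deubiquitinase Usp7 (0.50) and Cdca7 (-0.36). In scATAC-seq, partners called were 3 of 7 lower and 0 higher, among them Pcna with a ratio of 0.555. Of 14 S-phase genes 10 were highest in pL, none passed 2-fold against undiff. SpG (median -0.17), and the replicative helicase genes went both ways: Mcm2 0.75, Mcm7 0.75 and Mcm3 -0.70, with the topoisomerase Top2a at -0.73. In scATAC-seq, S-phase genes called were 8 of 14 lower and 0 higher, and against pL 5 of 14 were lower in RNA (Mcm3, Mcm5, Rrm2, Mki67 and Top2a).

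Of 8 tested genes for de novo and piRNA-directed methylation, Piwil4, the nuclear PIWI protein of fetal germ cells, passed as lower in SpG Nfya-CKO over undiff. SpG, with 0.347 against 0.867 (-1.11); it was named after its value was seen, because the count is 1. The 4 largest differences among genes whose mean reached 0.2 were Pld6, which acts in piRNA biogenesis (-0.82), the H3K36 methyltransferase genes Setd2 (0.47) and Nsd1 (0.38), and Tex15 (0.42), a piRNA-pathway protein of germ cells. The direction depends on the control: over diff. SpG 4 of the 8 were higher in SpG Nfya-CKO (Piwil4, Spocd1, Morc1 and Kdm1b) and 1 lower (Pld6), and over pL 3 were higher (Piwil4, Spocd1 and Morc1), with Piwil4 at 0.0862 in diff. SpG and 0.0826 in pL. From undiff. to diff. SpG 3 of the 8 were lower (Piwil4, Spocd1 and Morc1), with Morc1 going from 1.73 to 0.457. Of 8 tested base excision repair genes none passed (median -0.09), but the uracil glycosylase Ung was just short of it at 1.81 against 3.72 (-0.998). Lig3 (-0.44), Xrcc1 (-0.33) and Parp1 (-0.32), which act on the strand break that follows excision, had negative ratios, while Polb, which fills the gap (0.24), the endonuclease Apex1 (0.13) and the glycosylases Smug1 (0.52) and Neil2 (0.60) had positive ones, and the scATAC-seq count of the list was 6 of 9 lower and 1 higher. Of 8 methyl-CpG readers none passed (median -0.10), with Mbd3 at 0.83, Zbtb38 at -0.34 and Zbtb33 at -0.16. Of 7 tested genes for protection of methylation and regulation of Tet activity none passed (median 0.26). Trim28, the corepressor that guards imprints, was nearest at 2.93 against 1.45 (0.97), and Ctcf (0.34), Ogt (-0.30) and Idh1 (0.07) differed less. Of 5 genes for the methyl donor S-adenosylmethionine none passed (median 0.26), with Mat2a, which makes it, at 0.47. The tRNA methyltransferase Trdmt1, a structural relative of the Dnmt genes, had 0.0819 against 0.0673. Counts in scATAC-seq were 2 of 9 lower and 1 higher for de novo and piRNA-directed methylation (lower for Tex15 at a ratio of 0.685 and Setd2 at 0.734, higher for Dnmt3c at 1.7), 2 of 8 lower and 2 higher for readers, 1 of 8 lower and 0 higher for protection and regulation, and 1 of 5 lower and 0 higher for the methyl donor.

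The genes with the most similar course over the 9 control germ cell populations, by Pearson r of log2(value + 0.1) among 10067 genes whose mean reached 0.2, are given without a test. For Dnmt1 they were Psmd5 (0.996), Trp53inp1 (0.993) and Rpa2 (0.993). For Uhrf1 they were Alyref (0.991), Tfdp1 (0.984) and Elmo2 (0.984). For Dnmt3b they were Herc3 (0.997), Zfp518b (0.996) and Rbm38 (0.995). Apart from the piRNA precursor row of its own locus, Dnmt3a was nearest Polr3f (0.998) and Prkar2b (0.996). Apart from the piRNA precursor row of its own locus, Tet3 was nearest Rap2c (0.995) and Tab3 (0.995). Dnmt3l was nearest Mnt (0.989), Amotl1 (0.989) and P2rx3 (0.988). Tdg was nearest Zfp808 (0.996), Zfp609 (0.994) and Borcs5 (0.994). Tet2 was nearest Tbc1d4 (0.972), Tpd52l1 (0.972) and Klhl23 (0.967). Tet1 was nearest Eif2s3y (0.895) and Unc13b (0.895). Among the 9 genes themselves, Dnmt3a and Tet3 had an r of 0.971, Dnmt1 and Dnmt3b one of 0.957, and Dnmt3l had negative values with all 8 others, from -0.751 with Tdg to -0.206 with Tet1.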

How the data were processed

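Nuclei of mouse testes were profiled by scRNA-seq and scATAC-seq with the BD Rhapsody system, 5 libraries per assay. The authors aligned RNA reads with STAR 2.7.10b to mm10, kept uniquely mapped reads, collapsed UMIs and filtered cells with Seurat 5.2.1 (at least 500 genes, under 5% mitochondrial UMIs), and removed doublets. They aligned scATAC-seq reads with BWA 0.7.12, shifted ends with bedtools 2.27.1 and filtered cells with ArchR 1.0.3 (1000 fragments, TSS score of 4). Versions are those of the submitters' processing notes.

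The authors deposited UMI and fragment counts per cell, not normalized, and TSS enrichment per cell as a ratio. The authors also deposited a matrix per assay of 13 pooled populations. From its values each entry was found to be the natural log of 1 plus a mean of counts per 10000; scATAC values were rescaled to a sum of 1000000. Numbers of scATAC cells recovered from the matrix differ from those in the cell table (285 and 470 for SpG Nfya-CKO). 22 further columns were not used.

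RNA was compared as log2 of value + 0.1 at 2-fold over genes whose mean reached 0.05, and scATAC-seq as a ratio at 25% higher or 20% lower, in Python 3.11.15 (scipy 1.17.1, pandas 2.3.3, numpy 2.4.6). No test was run. Exact Poisson intervals use the effective UMI count behind a mean and assume the same rate in all cells of a population. The computation was tested on simulated data. The members and gene lists were chosen with earlier results of these data known. Named genes were the 9 members, piRNA rows of their loci, per list the 4 largest log2 ratios to undiff. SpG and 2 largest ranges at a mean of at least 0.2, the 3 most similar genes per member, markers and Nfya; 2 genes that this rule names are not reported here, and Dnmt3c, Trdmt1, Kdm1b, Spocd1, Piwil4, Polb, Apex1, Smug1, Neil2, Mcm5, Rrm2 and Mki67, outside it, were named after their values were seen. Alternatives changed the pseudocount, fold threshold, scaling, filter, control population and correlation measure; 3 were added after the data were seen.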

Additional observations from a re-analysis of the deposited data

How the results depend on the processing

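Of 706 recomputed results 629 stayed within 1.5-fold, within 0.2 for a correlation, or within the counting interval for a level, 70 moved and 7 values past the threshold turned, all scATAC ratios between stages: scaled on nuclear genes alone, L/Z/eP over eL/L/Z became 1.06 for Uhrf1, 1.06 for Dnmt3b and 1.05 for Tdg, and divided by the median ratio 1.01 for Uhrf1 and 1.005 for Dnmt3b, with 1.00004 for Uhrf1 in eL/L/Z over pL and 0.967 for Tdg in D over mP/lP. RNA counts depend on the pseudocount and threshold. Over the 8 steps, 2 pairs were higher and 8 lower. A pseudocount of 0.01 gave 6 and 13, 0.5 gave 0 and 2, and a threshold of 1.5-fold gave 7 and 16. Median-ratio scaling gave 2 and 7, without Dnmt3a from L/Z/eP to mP/lP (-0.87). For SpG Nfya-CKO a pseudocount of 0.01 gave 1 higher (Tet1) and 1 lower (Dnmt3l) against undiff. SpG, 1 higher against diff. SpG and 1 higher against pL; 1.5-fold gave 1, 1 higher against both SpG populations and 2 lower against pL; a pseudocount of 0.5 gave 0 lower against pL, and median-ratio scaling 2 (Dnmt1 and Uhrf1). In scATAC-seq, scaling on nuclear genes alone gave 11 higher and 15 lower pairs over the 8 steps against 18 and 22, 1 lower against undiff. SpG (Uhrf1, with Tdg at 0.807), 5 higher against diff. SpG, and 2 higher and 3 lower against pL (Uhrf1, Dnmt3a and Tet1). Division by the median ratio, chosen after seeing the data, gave 3 higher against diff. SpG. Shares of all genes on the nuclear or the median scale are not given. Adding 1 to both values gave 0 higher against undiff. SpG. A threshold of 1.5-fold gave 9 higher and 11 lower pairs over the steps, 0 higher and 1 lower against undiff. SpG, and 0 higher and 3 lower against pL. Uhrf1 was lower than undiff. SpG in every scATAC setting run. No paired analysis was possible because each population is 1 pooled value, and for the same reason no library could be left out. Depth limits Tdg and Tet1 in ES (about 5 and 13 effective UMIs) and Dnmt3l in pL (8).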
